A study of Homo sapiens with 9 samples.

Results

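The 9 genes described here encode enzymes of serine synthesis and of folate-bound one-carbon metabolism: PHGDH, PSAT1 and PSPH, which make serine, and SHMT1, SHMT2, MTHFD1, MTHFD1L, MTHFD2 and ALDH1L2, which move its side-chain carbon through the folate cofactors. They were chosen by pathway, as the rows of the deposited table that carry these symbols, and the choice was made with earlier results of the same libraries known, among them the low PSAT1 level under WB436B. The values of these genes are therefore given as a description, with no p-value, in all 3 comparisons. They are 9 of 60564 gene rows, and 8 of them were among the 12747 genes that reached 1 FPKM in at least 3 libraries. ALDH1L2 was not.

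Transcripts were measured by RNA-seq in BxPC3, an established line of human pancreatic ductal adenocarcinoma grown in serum-containing medium, in 9 libraries. The groups were cells given the code-named compound WB436B at 0.1 µM, cells transfected with siRNA (small interfering RNA) against STAT3, and vehicle-treated cells, with 3 libraries each. The labels call the libraries of a group biological replicates and give no culture, day or duration, so errors measure the spread between these libraries. A non-targeting siRNA is not among the groups, and the vehicle libraries serve as the reference for both treatments, so the 2 comparisons with vehicle are not independent. Levels are FPKM, fragments scaled by transcript length and library total, and differences are on the scale of log2(FPKM + 1), which understates the change of weakly expressed genes.

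Serine is made from the glycolytic intermediate 3-phosphoglycerate in a chain of steps: PHGDH oxidises it, PSAT1 transfers an amino group from glutamate, and PSPH removes the phosphate. SHMT2 in mitochondria and SHMT1 in the cytosol split serine into glycine and a one-carbon unit on tetrahydrofolate. In mitochondria MTHFD2 and MTHFD1L turn that unit into formate, ALDH1L2 can oxidise it to carbon dioxide, and in the cytosol MTHFD1 takes formate up again for purine and thymidylate synthesis. Transcription of several of these enzymes is known to be induced by ATF4, a factor of the amino acid and stress response.

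STAT3, the siRNA target, had 10.5, 10.9 and 10.8 FPKM under WB436B, 2.98, 2.58 and 3.02 FPKM after the siRNA, and 16.4, 15.8 and 15.1 FPKM in vehicle. Summed FPKM of 7 epithelial markers (KRT7, KRT8, KRT18, KRT19, EPCAM, CDH1 and MUC1) lay between 1101 and 1225 under WB436B. The sum lay between 1182 and 1261 after the siRNA and between 1218 and 1274 in vehicle. It does not show single markers, which differed more. The lowest value of any of these markers was 1.64 FPKM under WB436B, 1.499 FPKM after the siRNA and 8.12 FPKM in vehicle. The highest was 474 FPKM (KRT7) under WB436B, 515 FPKM (KRT19) after the siRNA and 732 FPKM (KRT19) in vehicle. None of 13 leukocyte, fibroblast and endothelial markers exceeded 2.40 FPKM in any library, and KDR was at 0 in all. The 5 fibroblast markers summed to at most 0.858 FPKM under WB436B, 3.65 FPKM after the siRNA and 2.02 FPKM in vehicle, and the 4 leukocyte markers to at most 0.806, 1.74 and 3.14 FPKM in these groups; their part in the results was not tested. In bulk RNA fewer cells of a type and less RNA per cell cannot be told apart. Estimated depth was 17600000 to 22300000 fragments under WB436B, 18300000 to 20700000 after the siRNA, and 50700000, 17100000 and 16200000 in vehicle, from steps between low FPKM values. The enzymes other than ALDH1L2 rested on about 79 to 4978 fragments per library, fewest for PSPH.

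Under WB436B the enzymes differed from vehicle in both directions. The first enzymes of serine synthesis, PHGDH and PSAT1, were 2.69-fold and 4.16-fold below vehicle in mean FPKM, while MTHFD1 and MTHFD1L were 1.64-fold and 1.67-fold above it. After STAT3 siRNA, PSAT1, PSPH, MTHFD1 and MTHFD2 were each 1.52-fold to 1.67-fold above vehicle. MTHFD1L was close to its vehicle level there, with a log2 difference of 0.041 that turned to -0.028 under median-of-ratios scaling.

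**Figure D1:**
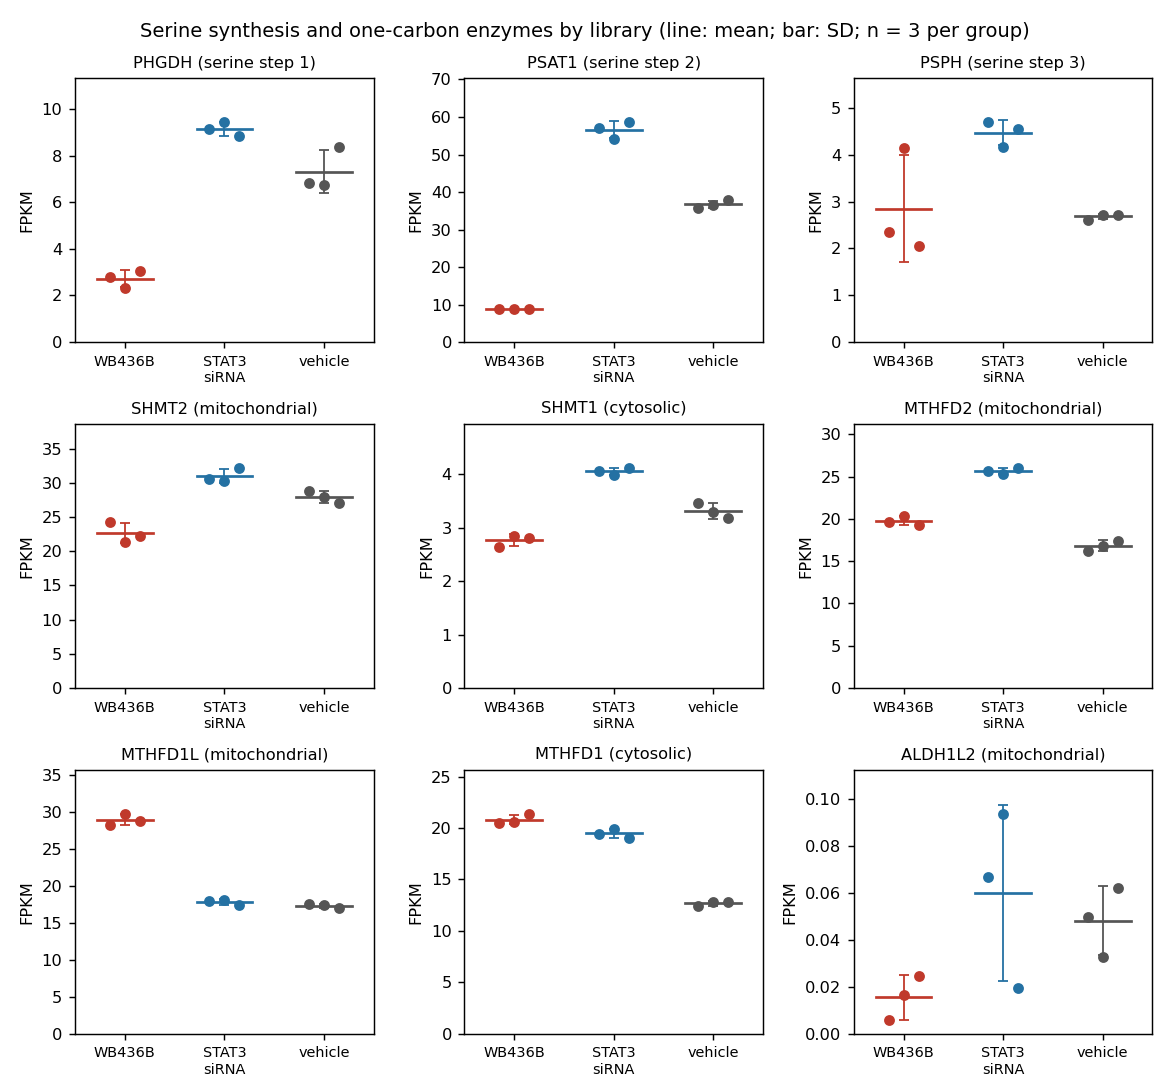
FPKM of the 9 enzyme genes in each library, from 0 on a linear axis that differs between panels, under WB436B, after STAT3 siRNA and in vehicle; points are libraries, lines means and bars SD (n = 3). PSAT1 lies between 8.76 and 8.93 FPKM under WB436B, between 54.1 and 58.6 FPKM after the siRNA and between 35.8 and 37.8 FPKM in vehicle, and ALDH1L2 is below 0.1 FPKM in all 9 libraries.

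PSAT1, the aminotransferase, had 8.81, 8.76 and 8.93 FPKM under WB436B, 57.1, 54.1 and 58.6 FPKM after the siRNA, and 35.8, 36.6 and 37.8 FPKM in vehicle. All WB436B libraries lay below all vehicle libraries and all siRNA libraries above them, with no overlap. The log2 difference was -1.94 (SE 0.0421) for WB436B against vehicle, 0.61 for the siRNA against vehicle and -2.55 for WB436B against the siRNA, where mean FPKM differed 6.41-fold. Among tested genes PSAT1 stood above 69.1% under WB436B, 95.9% after the siRNA and 93.1% in vehicle, ranked by mean FPKM. The pseudogenes PSAT1P1 to PSAT1P4 held at most 0.0277 FPKM in any library.

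PHGDH, the dehydrogenase that starts the chain, had 2.78, 2.33 and 3.04 FPKM under WB436B, 9.13, 9.42 and 8.86 FPKM after the siRNA, and 6.83, 6.72 and 8.37 FPKM in vehicle. The WB436B libraries were the lowest without overlap, and the siRNA libraries lay above those of vehicle, where vehicle 3 stood above the other vehicle libraries. The log2 difference was -1.16 (SE 0.0942) for WB436B against vehicle, 0.29 (SE 0.0942) for the siRNA against vehicle and -1.45 for WB436B against the siRNA. PSAT1 and PHGDH were thus lower by unequal amounts, and the ratio of PSAT1 to PHGDH in FPKM averaged 3.29 ± 0.426 under WB436B, 6.20 ± 0.436 after the siRNA and 5.07 ± 0.490 in vehicle (SD, n = 3 each).

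PSPH, the phosphatase that releases serine, had 2.35, 4.15 and 2.05 FPKM under WB436B, 4.69, 4.17 and 4.56 FPKM after the siRNA, and 2.62, 2.72 and 2.71 FPKM in vehicle. The siRNA libraries lay above those of vehicle (log2 difference 0.57, SE 0.170). That SE pools the spread of all 3 groups. The SD was 1.14 FPKM under WB436B, 0.269 FPKM after the siRNA and 0.0584 FPKM in vehicle. The WB436B libraries fell on both sides of vehicle, and WB436B 2 stood well above the other WB436B libraries, just below the lowest siRNA library. All WB436B libraries lay below all siRNA libraries. The difference of WB436B from vehicle was 0.024 with all libraries and -0.21 without WB436B 2, and that of WB436B from the siRNA was -0.55. PSPHP1, a pseudogene copy of PSPH with which fragments may be exchanged, had 3.89, 3.49 and 3.45 FPKM under WB436B, 7.11, 7.51 and 6.40 FPKM after the siRNA, and 3.85, 4.87 and 5.31 FPKM in vehicle, so it was not raised in WB436B 2.

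To show the start regions of genes that differed most, and in both directions, the 250 bases before the RefSeq start of PSAT1, PHGDH and MTHFD1 and a stretch of the MTHFD1L window follow, 5′ to 3′ on the strand of the gene, from GRCh38.p14. Capitals mark matches to the ATF4 composite element TGATGNAA, the E-box CACGTG bound by MYC and MAX, or the STAT element TTCNNNGAA, searched on both strands.
PSAT1, chr9:78296875-78297124, plus strand: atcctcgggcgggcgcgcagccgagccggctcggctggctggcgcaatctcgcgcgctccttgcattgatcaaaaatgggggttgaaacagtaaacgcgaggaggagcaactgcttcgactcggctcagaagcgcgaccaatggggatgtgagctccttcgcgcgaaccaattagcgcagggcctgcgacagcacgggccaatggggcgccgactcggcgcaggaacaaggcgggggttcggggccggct
PHGDH, chr1:119711684-119711933, plus strand: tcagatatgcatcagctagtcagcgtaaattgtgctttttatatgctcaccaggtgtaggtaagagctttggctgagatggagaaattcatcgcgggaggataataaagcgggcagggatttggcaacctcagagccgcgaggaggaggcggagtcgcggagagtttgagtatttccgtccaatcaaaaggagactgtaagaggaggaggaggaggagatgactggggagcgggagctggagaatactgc
MTHFD1, chr14:64388103-64388352, plus strand: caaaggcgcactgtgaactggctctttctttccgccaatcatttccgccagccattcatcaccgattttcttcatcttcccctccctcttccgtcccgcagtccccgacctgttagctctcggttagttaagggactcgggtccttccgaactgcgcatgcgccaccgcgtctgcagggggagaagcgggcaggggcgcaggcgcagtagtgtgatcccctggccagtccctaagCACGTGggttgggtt
MTHFD1L, chr6:150866346-150866375, plus strand: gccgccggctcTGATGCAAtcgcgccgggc

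Windows were present for 6 of the 9 genes, those of PSAT1, PHGDH, MTHFD1, MTHFD1L, MTHFD2 and SHMT1. TGATGNAA occurred in the windows of 1 gene, MTHFD1L, against 3.14% of 35116 windows of the same length over all genes. CACGTG occurred for MTHFD1 and MTHFD1L, against 6.34% of windows. TTCNNNGAA occurred for SHMT1, against 6.57% of windows. CCAAT, not marked in capitals, occurred for all 6, with 3 matches in the PSAT1 window, against 32.0% of windows. A gene was counted when any of its windows matched, whereas the shares are of single windows. The units therefore differ for MTHFD1L. MTHFD1L has 4 windows for its alternative starts, of which 3 overlap one another; the TGATGNAA and CACGTG matches lie in 2 of these. Matches of letters are a description of these windows and show neither binding nor its absence.

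SHMT2, the mitochondrial serine hydroxymethyltransferase, had 24.2, 21.4 and 22.3 FPKM under WB436B, 30.6, 30.2 and 32.1 FPKM after the siRNA, and 28.7, 27.9 and 27.0 FPKM in vehicle. The 3 groups did not overlap, but the siRNA difference from vehicle was small (log2 difference 0.15, SE 0.0532) beside that of WB436B (-0.29), and WB436B against the siRNA gave -0.44. SHMT1, its cytosolic counterpart, had 2.63, 2.85 and 2.81 FPKM under WB436B, 4.07, 3.98 and 4.11 FPKM after the siRNA, and 3.47, 3.30 and 3.18 FPKM in vehicle. Its groups did not overlap either, with log2 differences of -0.20 for WB436B, which turned to 0.039 under quantile normalization, 0.23 for the siRNA and -0.43 between the treatments. SHMT2 stood at 8.21 ± 0.872 times the FPKM of SHMT1 under WB436B, 7.64 ± 0.150 after the siRNA and 8.42 ± 0.107 in vehicle (SD, n = 3 each). The ratio was lower in all siRNA libraries than in all vehicle libraries, and the WB436B libraries spread over both.

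MTHFD2, the mitochondrial dehydrogenase and cyclohydrolase, had 19.7, 20.4 and 19.3 FPKM under WB436B, 25.7, 25.4 and 26.0 FPKM after the siRNA, and 16.2, 16.9 and 17.4 FPKM in vehicle. Both treatments lay above vehicle without overlap, the siRNA (log2 difference 0.58, SE 0.0411) further than WB436B (0.22), and the direct difference of WB436B from the siRNA was -0.36. Gene models on the opposite strand overlap 33.2% of the MTHFD2 exon bases, and whether counting used strand is not given in the sources used here. MTHFD2L, its paralogue, had at most 0.775 FPKM in all libraries.

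MTHFD1L, the mitochondrial formyltetrahydrofolate synthetase that releases formate, had 28.3, 29.8 and 28.8 FPKM under WB436B, 17.9, 18.1 and 17.4 FPKM after the siRNA, and 17.5, 17.4 and 17.0 FPKM in vehicle. Only WB436B stood apart, at 0.71 above vehicle and 0.67 above the siRNA on the log2 scale (SE 0.0379 each), while siRNA and vehicle libraries overlapped. MTHFD1, the trifunctional cytosolic enzyme, had 20.5, 20.6 and 21.4 FPKM under WB436B, 19.4, 19.9 and 19.1 FPKM after the siRNA, and 12.4, 12.8 and 12.8 FPKM in vehicle. Both treatments lay above vehicle, by 0.68 (WB436B) and 0.58 (siRNA) with an SE of 0.0387, and WB436B lay 0.092 above the siRNA. Other gene models overlap 11% of the MTHFD1 exon bases and 9.51% of those of SHMT2. MTHFD1L and MTHFD2, consecutive steps of the mitochondrial route, stood in a ratio of 1.46 ± 0.0283 under WB436B, 0.694 ± 0.0224 after the siRNA and 1.03 ± 0.0517 in vehicle in FPKM (SD, n = 3 each).

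ALDH1L2, the mitochondrial formyltetrahydrofolate dehydrogenase, was close to the detection limit, with 0.00566, 0.0163 and 0.0248 FPKM under WB436B, 0.0668, 0.0936 and 0.0193 FPKM after the siRNA, and 0.0497, 0.0327 and 0.0621 FPKM in vehicle. These values correspond to about 1 to 19 fragments per library, and no fold change is given. ALDH1L1, its cytosolic paralogue, had 1.68, 1.48 and 1.53 FPKM under WB436B, 2.14, 2.25 and 1.91 FPKM after the siRNA, and 4.02, 4.17 and 3.67 FPKM in vehicle. The ALDH1L1 libraries of the 3 groups did not overlap, and limma's adjusted p was 4.4e-06 for WB436B (log2 difference -0.95) and 6.9e-05 for the siRNA (-0.67), each against vehicle.

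**Figure D2:**
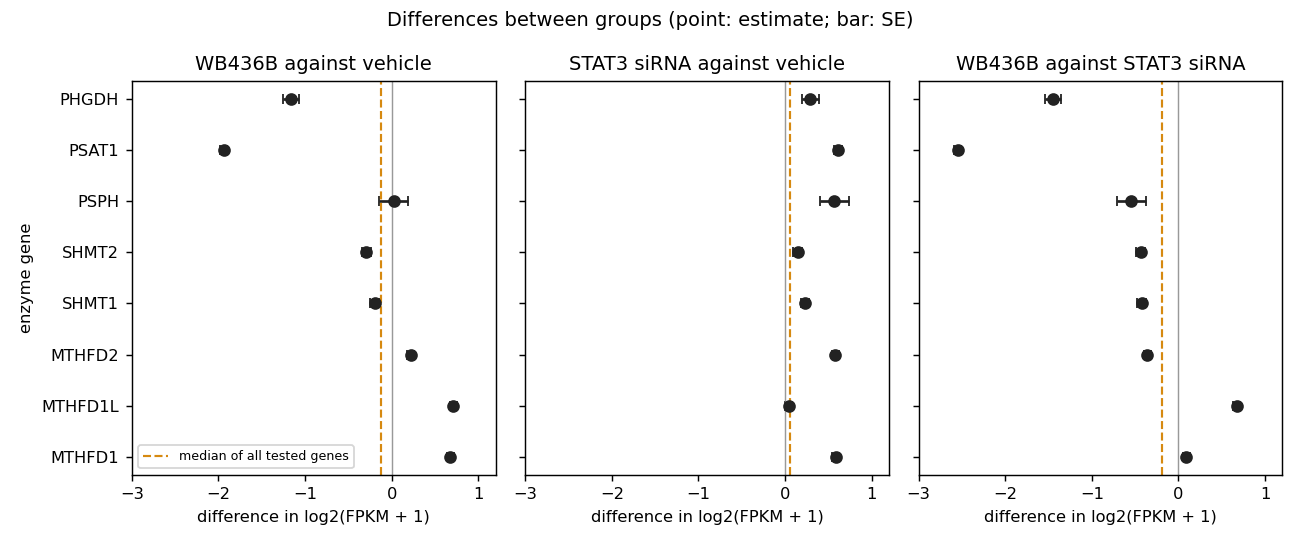
Difference in log2(FPKM + 1) of the 8 tested enzyme genes with its SE, for WB436B against vehicle, STAT3 siRNA against vehicle and WB436B against STAT3 siRNA; the dashed line is the median of all 12747 tested genes. PSAT1 lies at -1.94, 0.61 and -2.55 across the panels and MTHFD1L at 0.71, 0.041 and 0.67; the sign of SHMT1 in the first panel turns under quantile normalization, that of MTHFD1L in the second under median-of-ratios scaling, and that of PSPH in the first without WB436B 2.

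Of the 8 tested enzymes, 3 were called higher and 4 lower under WB436B against vehicle at an adjusted p below 0.05 over all tested genes, where 24.9% of all tested genes were called higher and 41.1% lower. PSPH was the enzyme not called. After the siRNA 7 were called higher and none lower, against 29.8% and 22.3% of all genes, and MTHFD1L was not called. For WB436B against the siRNA 1 was called higher and 6 lower, against 20.0% and 44.1% of all genes, and MTHFD1 was not called. PSPH, among the 6, was not called there with no filter, median-of-ratios scaling or quantile normalization. Nor was it called without WB436B 1, WB436B 3, siRNA 1 or siRNA 3. The median log2 difference of the 8 was -0.087, 0.43 and -0.43 in these comparisons, beside -0.13, 0.062 and -0.18 over all tested genes. Since the enzymes were chosen with these contrasts known, nothing is read from the counts. The count of 7 after the siRNA was 4 without siRNA 1, without siRNA 3 or without vehicle 1, where PHGDH, PSPH and SHMT2 were no longer called. SHMT2 was not called there when any siRNA or vehicle library was left out. With median-of-ratios scaling the count was 5, without PHGDH (log2 difference 0.23) and SHMT2 (0.077). SHMT1 and SHMT2 were no longer called under WB436B against vehicle with that scaling, which moved the median of all genes in that comparison to 0.0034. Of all calls 37.7% were higher under WB436B against vehicle, 50.4% with that scaling and 53.0% with quantile normalization; against the siRNA the shares were 31.2%, 51.2% and 50.0%.

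The order of the enzymes by mean FPKM differed between groups. Under WB436B it ran MTHFD1L, SHMT2, MTHFD1, MTHFD2, PSAT1, PSPH, SHMT1, PHGDH and ALDH1L2, where PSPH, SHMT1 and PHGDH overlapped their neighbours in range. After the siRNA it ran PSAT1, SHMT2, MTHFD2, MTHFD1, MTHFD1L, PHGDH, PSPH, SHMT1 and ALDH1L2, with no overlap between neighbours. In vehicle it ran PSAT1, SHMT2, MTHFD1L, MTHFD2, MTHFD1, PHGDH, SHMT1, PSPH and ALDH1L2, with overlap between MTHFD1L and MTHFD2. PSAT1 thus stood first in vehicle and after the siRNA and in place 5 under WB436B.

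Summed FPKM of PHGDH, PSAT1 and PSPH was 14.4 ± 0.729 under WB436B, 70.2 ± 2.22 after the siRNA and 46.7 ± 1.89 in vehicle (SD, n = 3 each). The 5 folate enzymes SHMT1, SHMT2, MTHFD1, MTHFD1L and MTHFD2 summed to 95.0 ± 0.381 FPKM under WB436B, 98.0 ± 0.613 FPKM after the siRNA and 78.0 ± 0.514 FPKM in vehicle. The serine enzymes therefore made up 13.2 ± 0.578% of the sum of all 8 under WB436B, 41.7 ± 0.672% after the siRNA and 37.4 ± 1.10% in vehicle. PSAT1 alone gave 61.5 ± 3.45% of the serine sum under WB436B, 80.6 ± 0.721% after the siRNA and 78.6 ± 1.16% in vehicle.

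**Figure D3:**
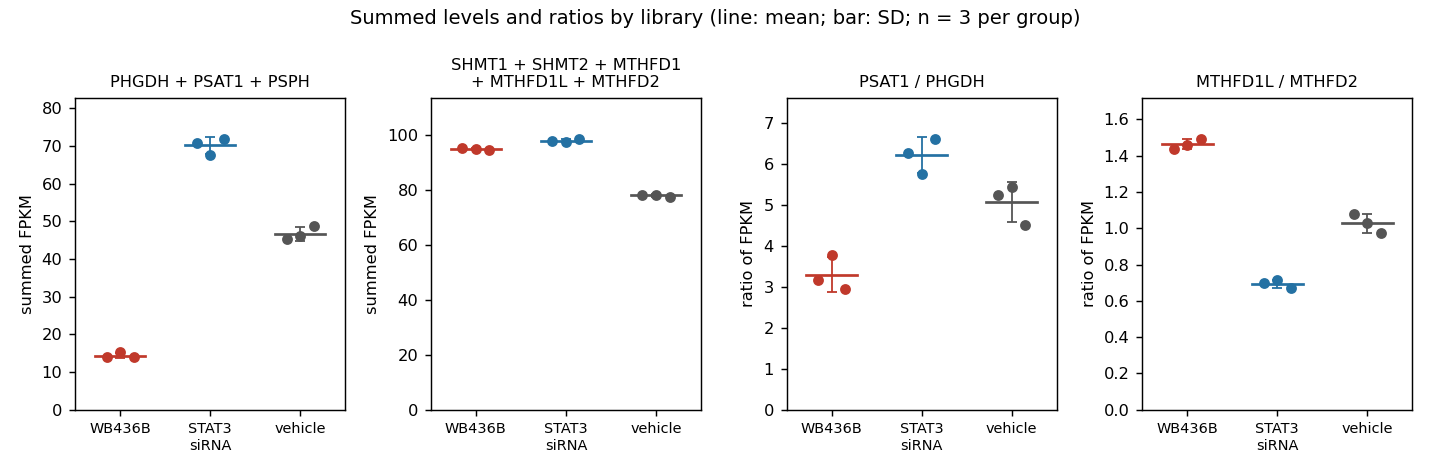
Summed FPKM of the serine and the folate enzymes and the FPKM ratios PSAT1 to PHGDH and MTHFD1L to MTHFD2, by library under WB436B, after STAT3 siRNA and in vehicle; points are libraries, lines means and bars SD (n = 3), and all axes start at 0. The serine sum averages 14.4, 70.2 and 46.7 FPKM in these groups, and the folate sum 95.0, 98.0 and 78.0 FPKM.

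Likeness of pattern was measured as the root-mean-square difference of log2(FPKM + 1) over the 9 libraries, each gene centred on its vehicle mean. The genes nearest to PSAT1 outside the 9 were AKR1C1 (0.149), an aldo-keto reductase, KRT15 (0.178), a basal keratin, and IL20RB (0.206), a cytokine receptor subunit. AKR1C1 averaged 5.80 FPKM under WB436B, 30.4 FPKM after the siRNA and 21.5 FPKM in vehicle. Nearest to PHGDH were FOXD2-AS1, PYGO2 and RAB11FIP1P1 (0.100 to 0.101), and among those nearest to MTHFD2 were RFC5 (0.0191) and AKT1S1 (0.0442). Among the 8 enzymes the nearest pair was SHMT1 with SHMT2 (0.0958) and the farthest MTHFD1L with PSAT1 (1.57), while PHGDH and PSAT1 differed by 0.496.

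Neighbouring pathways were described with 6 gene lists, whose calls are from the same limma fit. Over all tested genes 24.9% were called higher and 41.1% lower under WB436B against vehicle (median -0.13). The shares were 29.8% and 22.3% after the siRNA (median 0.062), and 20.0% and 44.1% for WB436B against the siRNA (-0.18). Several list counts lie near these shares. The lists were chosen with earlier results of these libraries known, and the named genes by smallest adjusted p. Adjusted p-values of list genes, ALDH1L1 included, are therefore a description only. Carriers of serine and glycine gave 4 genes higher and 5 lower of 11 tested under WB436B against vehicle (median log2 difference -0.020). The carriers of smallest adjusted p were SLC6A14, an amino acid carrier (1.45 ± 0.135 FPKM under WB436B and 7.87 ± 0.0710 FPKM in vehicle, log2 difference -1.86, adjusted p = 5.8e-08), SLC6A9, a glycine carrier (-1.74, adjusted p = 8.9e-08), and SLC38A2, a carrier of small neutral amino acids (73.7 ± 2.73 FPKM under WB436B and 154 ± 0.666 FPKM in vehicle, -1.06). The 5 lower were 3 with quantile normalization. After the siRNA 6 of the 11 rose and 2 fell (median 0.30). SLC1A4, a serine and alanine carrier, was at 0.76, SFXN2 at 0.67 and SFXN3 at -0.64. SLC1A4 averaged 1.27 ± 0.0315 FPKM after the siRNA, 0.343 ± 0.0722 FPKM in vehicle and 0.143 ± 0.0406 FPKM under WB436B. It passed the filter only through the siRNA libraries, where it was high, so no p-value is given for it. The counts of this list include SLC1A4, and nothing is read from its call. SFXN2 and SFXN3 belong to the mitochondrial sideroflexins. Against the siRNA 3 rose and 5 fell under WB436B (median -0.21), and SLC38A2 (-1.14), SLC6A9 (-1.82) and SLC6A14 (-1.63) were again the named genes.

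Of 10 genes of glycine cleavage and of serine or glycine breakdown 5 were tested. GLDC, AMT, SDS, AGXT and GLYCTK were not, with at most 0.648 FPKM in any library. Under WB436B 2 rose and 2 fell against vehicle (median -0.089). The glycine cleavage carrier protein GCSH averaged 3.77 ± 0.290 FPKM under WB436B and 2.02 ± 0.162 FPKM in vehicle (log2 difference 0.66, adjusted p = 0.00077), and GCAT, which acts in threonine breakdown, rose by 0.54 (adjusted p = 0.0045). SDSL, related to serine dehydratase, fell by 0.31 (adjusted p = 0.016), a sign that turned to 0.041 under quantile normalization. The 2 falls were not called with median-of-ratios scaling, quantile normalization or without WB436B 1, and 1 was called without WB436B 2, siRNA 1, siRNA 2 or vehicle 3. After the siRNA 3 rose and none fell (median 0.31), namely GCSH (0.72), GCAT (0.53) and SDSL (0.31). Against the siRNA 3 fell under WB436B and none rose (median -0.27), namely SDSL (-0.63), DLD (-0.27) and SRR (-0.30), of which SRR turned to 0.14 under quantile normalization and DLD was -0.040 with median-of-ratios scaling. The count of 3 was 1 with that scaling or without siRNA 2.

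Folate uptake and other folate enzymes gave 2 genes higher and 4 lower of 11 tested under WB436B against vehicle (median -0.17). Both rises were in carriers. SLC19A1, the reduced folate carrier of the plasma membrane, averaged 2.16 ± 0.0837 FPKM under WB436B and 0.562 ± 0.0276 FPKM in vehicle (log2 difference 1.02). After the siRNA it averaged 1.02 ± 0.167 FPKM. It passed the filter only with the WB436B libraries, where it was high, so no p-value is given for it. The counts of rises in this list include SLC19A1, and nothing is read from its call. SLC25A32, the mitochondrial folate carrier, averaged 16.4 ± 0.129 FPKM under WB436B and 7.69 ± 0.580 FPKM in vehicle (1.00, adjusted p = 9.3e-07). After the siRNA 3 rose and 3 fell (median 0.077), with SLC25A32 at 0.35 (adjusted p = 0.00079). The count of 3 lower was 1 without siRNA 1, without siRNA 2 or without vehicle 3, and 1 with no filter or equal totals. Against the siRNA 2 rose and 4 fell under WB436B (median -0.035), with SLC25A32 at 0.66 (adjusted p = 1.3e-05); the 4 lower were 2 under median-of-ratios scaling and 1 under quantile normalization.

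Purine synthesis, which consumes formyl groups on folate, gave 10 genes higher and none lower of 11 tested under WB436B against vehicle (median 0.77). PPAT, its committed step, averaged 10.8 ± 0.0441 FPKM under WB436B and 4.25 ± 0.115 FPKM in vehicle (log2 difference 1.17, adjusted p = 2.1e-07). ATIC and GART, the enzymes that use formyltetrahydrofolate, rose by 0.77 and 0.76 (adjusted p = 6.9e-07 and 6.1e-07). After the siRNA 7 rose and none fell (median 0.41), with PPAT at 0.75, PRPS1 at 0.71 and GART at 0.41. Against the siRNA 8 rose under WB436B and none fell (median 0.35), with ATIC at 0.61, PPAT at 0.42 and GART at 0.35.

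The methionine cycle and transsulfuration gave 2 genes higher and 3 lower of 7 tested under WB436B against vehicle (median -0.30). AHCY, which hydrolyses S-adenosylhomocysteine, rose by 0.27 (adjusted p = 0.00088), MAT2A, which makes S-adenosylmethionine, fell by 0.32 (adjusted p = 0.00021), and CTH, an enzyme of cysteine synthesis, fell by 0.59 (adjusted p = 0.0013). With quantile normalization AHCY (0.12) and CTH (-0.23) were not called. After the siRNA 2 rose and 1 fell (median 0.0076), with AHCY at 0.49, MAT2A at 0.17 and MAT2B at -0.47. MAT2A was 0.098 and not called with median-of-ratios scaling, and without WB436B 2, which changes the shared spread, 3 genes were called higher and 2 lower. Against the siRNA 3 fell under WB436B and none rose (median -0.21), namely MAT2A (-0.49), CTH (-0.60) and AHCY (-0.22), of which AHCY turned to 0.013 under median-of-ratios scaling. The count of none higher was 2 with that scaling or quantile normalization and 1 without vehicle 2 or without vehicle 3, and CTH (-0.23) was not called with quantile normalization. CBS, which feeds transsulfuration with serine, was listed at 0 in every library. Whether the gene was silent or its fragments were not assigned to it was not tested.

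ATF4 and 16 amino acid and stress genes that it induces gave 5 genes higher and 11 lower of 17 tested under WB436B against vehicle (median -0.51), and 12 higher and 2 lower after the siRNA (median 0.52). Against the siRNA 1 rose, which was not called with quantile normalization, and 14 fell under WB436B (median -0.95). ATF4 itself averaged 107 ± 6.26 FPKM under WB436B, 209 ± 6.12 FPKM after the siRNA and 152 ± 6.73 FPKM in vehicle, and WB436B against the siRNA gave -0.97 (adjusted p = 2.0e-06). PCK2, the mitochondrial phosphoenolpyruvate carboxykinase, averaged 2.99 ± 0.250 FPKM under WB436B and 10.3 ± 1.26 FPKM in vehicle (-1.50, adjusted p = 1.1e-06). DDIT4, an inhibitor of mTORC1 signalling, fell in both treatments, by 2.50 under WB436B and by 1.39 after the siRNA. ALDH18A1, an enzyme of proline synthesis, rose under WB436B (0.79, adjusted p = 7.6e-07) and after the siRNA (0.61, adjusted p = 7.7e-06). SLC7A5, the large neutral amino acid carrier, rose by 0.79 after the siRNA, and NUPR1 was lower under WB436B than after the siRNA by 1.43 on the log2 scale.

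**Figure D4:**
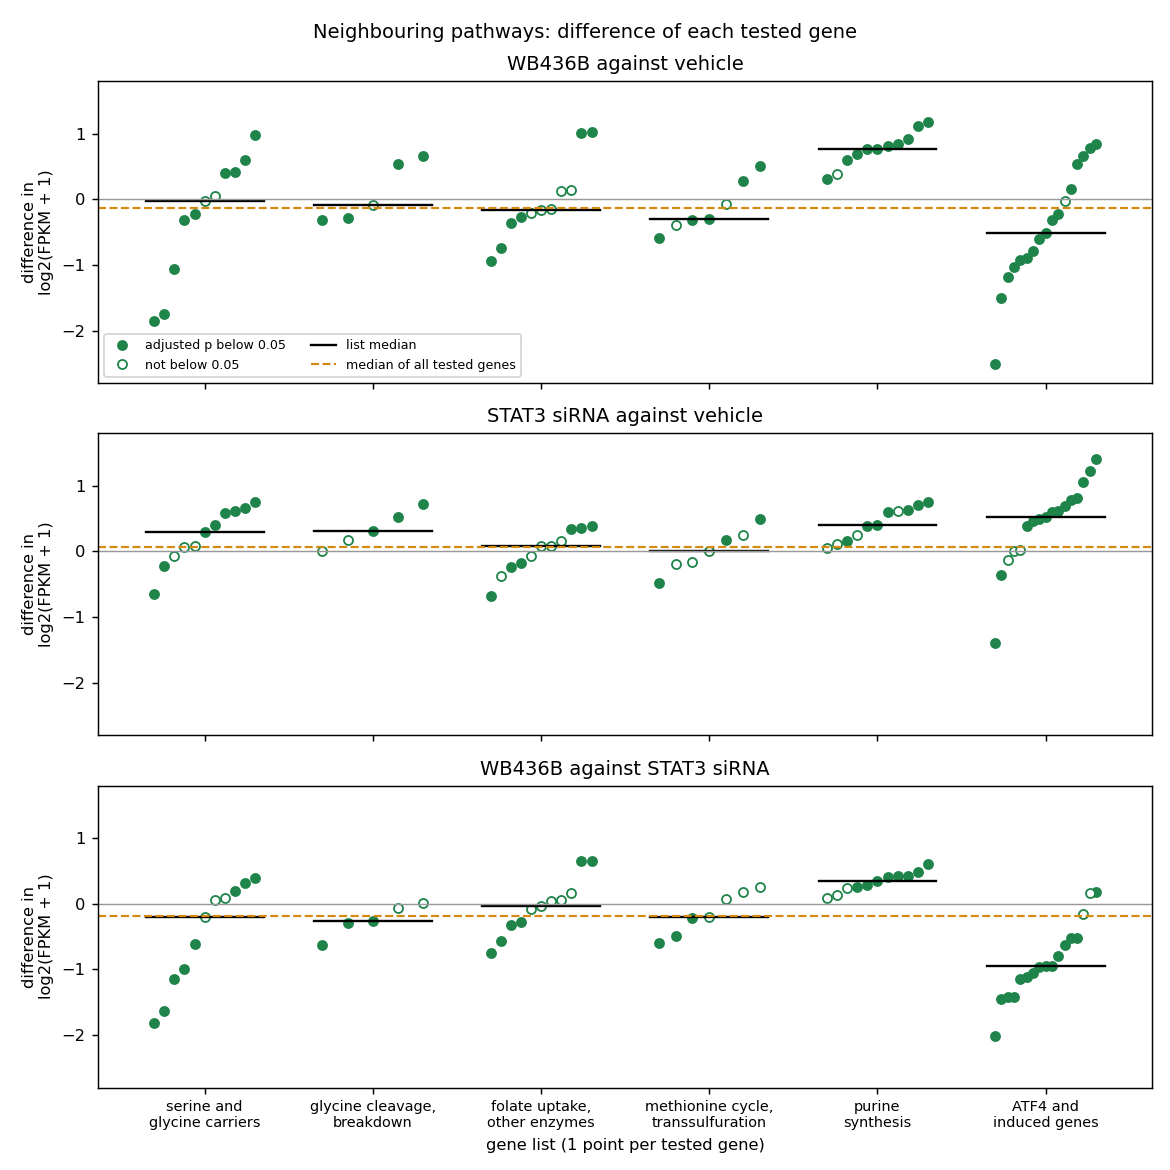
Difference in log2(FPKM + 1) of each tested gene of the 6 neighbouring lists, for WB436B against vehicle, STAT3 siRNA against vehicle and WB436B against STAT3 siRNA; filled points have an adjusted p below 0.05, black lines are list medians and the dashed line the median of all tested genes. Medians of purine synthesis are 0.77, 0.41 and 0.35 and those of ATF4 with its induced genes -0.51, 0.52 and -0.95; signs of SDSL, SRR and AHCY turn under another scaling as stated in the text.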

How the data were processed

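The authors deposited 1 table of FPKM with a column per library and 3 empty columns. Per the submitters' processing notes, Bowtie 0.12.2 and the build mm8 were used, a mouse build, while the identifiers are human Ensembl genes. Which program gave the FPKM values, with which annotation and strand setting, is not given here by labels or notes. FPKM is relative to each library's own total. No pair of libraries shared a value above 1 FPKM. Genes reaching 1 FPKM in 3 or more of the 9 libraries were tested as log2(FPKM + 1) in 1 fit of all libraries with limma 3.58.1 in R 4.3.3 (trended variance, 6 residual degrees of freedom, two-sided, Benjamini-Hochberg over all tested genes, called below 0.05). The fit was checked on simulated data. Depth was estimated from single-transcript genes of GENCODE 29, assuming full transcript length, and fragments per gene use the longest transcript, so both are approximate and cover counting only. Promoters are RefSeq sequences matched by symbol. Members and lists were chosen with earlier results of these data known. Named genes are the 9 members, up to 3 called genes of smallest adjusted p per list and comparison, and the 3 genes most like PSAT1, PHGDH and MTHFD2, of which some are not reported here; values of a few genes named in 1 comparison, such as ATF4, are also given in another, chosen after they were seen. Alternatives changed the pseudocount, filter, scaling, variance model, libraries and replicate block. With 3 libraries per group, no test for an outlying library was made.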

Additional observations from a re-analysis of the deposited data

How the results depend on the processing

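Among the 8 tested enzymes, 414 recomputed differences kept direction and call, 32 lost a call, 1 gained one and 3 changed sign. Among named genes of the neighbouring lists 979 kept direction and call, 19 lost a call and 3 changed sign. Of the lists' counts 641 stayed within 1.5 times and 43 did not. A changed filter, variance model or replicate block cannot alter a difference. Nor can leaving out a library of the group not compared, or that whole group. Only the call could change there, so the tallies include directions that were fixed in advance. Under median-of-ratios scaling MTHFD1L after the siRNA turned to -0.028 and AHCY between the treatments to 0.013. Under quantile normalization SHMT1 and SDSL under WB436B turned to 0.039 and 0.041 and SRR between the treatments to 0.14. PSPH under WB436B against vehicle ranged between -0.21 and 0.17 when each library was left out in turn. With a filter of 5 FPKM, 4860 genes were called for WB436B against vehicle, 4138 for the siRNA against vehicle and 4629 between the treatments, against 8402, 6638 and 8175, since fewer genes were tested. With no filter 4 enzymes were called higher after the siRNA. Median-of-ratios scaling left 2 enzymes called lower under WB436B against vehicle and 2 called higher against the siRNA, and the cause was not tested. Leaving out each library gave 4 to 7 enzymes called higher after the siRNA. Same-numbered libraries of different groups had correlations of deviations of -0.0847 to 0.158, not all above 0.1, so the numbers were not taken as pairs. With the replicate block 8152, 6312 and 7959 genes were called in the order above, and 6 enzymes were called higher after the siRNA, without SHMT2. Depth limits ALDH1L2 most, at about 1 to 19 fragments per library.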
